A study of Drosophila melanogaster with 3 samples.

Results

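The regions described here were those on chromosome 4, the smallest chromosome of *Drosophila melanogaster*, in a map of where the CG12659 protein sits on the embryo genome. They were chosen by position alone, as every row of the pooled region list whose chromosome was 4 on the dm6 build, which gave 326 of 30000 regions. Of these, 85 also belonged to the 8952 regions that the authors kept as reproducible between replicates by an irreproducible discovery rate step (the IDR peaks). That was 26.1% of the chromosome 4 regions (95% exact Clopper-Pearson interval 21.4 to 31.2), beside 29.8% of the regions on all arms. All samples came from a transgenic line carrying CG12659 with GFP at its C terminus, and consisted of whole embryos of pooled sex collected over 0 to 24 hours. Sonicated chromatin in a size range of 200 to 800 bp was immunoprecipitated with an antibody to GFP and sequenced (ChIP-seq). The antibody field of the labels gives CG12659 instead, and the free-text account naming GFP was followed. The 3 biological replicates formed 1 group, with no second genotype, treatment or age, and what promoter drives the fusion gene is not given in the sources here. Beyond the term biological, the labels do not say that the replicates were separate embryo collections, so the spread between them may be partly technical. A whole embryo mixes all its cell types and ages, so a strong region in few cells and a weak one in many cannot be told apart.

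Chromosome 4, also called the dot chromosome or Muller element F, is rich in repeats and transposable elements, and much of it is packaged with the heterochromatin protein HP1a and with methylated histone H3 lysine 9. Its genes are nevertheless expressed, and it has a protein of its own, POF, that binds its active genes. CG12659 has a YL1-type C-terminal domain and is related to the INO80C subunit of the INO80 complex, which moves and exchanges nucleosomes near gene starts.

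Base by base, the summits of the strongest peaks looked as follows, in windows reaching 50 bp to either side of the summit, plus strand of genome release 6 (dm6) as in RefSeq, with capitals marking the searched motifs wherever one was present. The promoter windows shown are those without annotated UTR bases among the 8 strongest promoter peaks. These lay at Sox102F (chr4:807551-807651), PlexA (chr4:1027218-1027318), gw (chr4:660092-660192) and anne (chr4:132101-132201), and CTCTC in the PlexA window is the GAGAG motif read on the other strand. Among the windows not shown, those of RpS3A and ATPsynbeta held the searched motif GCCAT.
Sox102F: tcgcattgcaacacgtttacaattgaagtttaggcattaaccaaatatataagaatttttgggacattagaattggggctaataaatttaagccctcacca
PlexA: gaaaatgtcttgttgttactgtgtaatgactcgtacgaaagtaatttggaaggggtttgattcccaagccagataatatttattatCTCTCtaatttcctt
gw: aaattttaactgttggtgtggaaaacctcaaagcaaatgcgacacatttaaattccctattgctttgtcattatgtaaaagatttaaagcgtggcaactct
anne: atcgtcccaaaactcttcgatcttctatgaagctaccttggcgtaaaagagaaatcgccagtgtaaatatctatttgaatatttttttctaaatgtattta

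The windows below had their summits more than 500 bp from any annotated transcription start site (TSS). They are shown because some of them held the DNA replication-related element (DRE), a motif usually met at the promoters of broadly expressed genes. The first 3 were among the strongest such peaks, upstream of zfh2 at −3912 bp from its TSS (chr4:497848-497948), of lncRNA:CR43437 at −1242 bp (chr4:424775-424875) and of ey at −754 bp (chr4:696885-696985). The last 3 were chosen after their letters were seen because they hold the DRE core. They lay in an Asator intron at −654 bp from a TSS (chr4:486637-486737), 2128 bp downstream of the start of snoRNA:CD-24 (chr4:63467-63567) and upstream of mir-9385 at −3764 bp (chr4:404479-404579). Another 5 of the 15 windows read from the genome held annotated UTR bases and are not shown.
zfh2: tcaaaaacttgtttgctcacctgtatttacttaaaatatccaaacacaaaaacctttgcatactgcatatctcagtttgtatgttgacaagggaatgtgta
lncRNA:CR43437: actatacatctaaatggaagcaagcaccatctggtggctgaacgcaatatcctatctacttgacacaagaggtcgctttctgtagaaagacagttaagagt
ey: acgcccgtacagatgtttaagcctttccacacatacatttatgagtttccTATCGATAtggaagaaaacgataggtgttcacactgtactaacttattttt
Asator: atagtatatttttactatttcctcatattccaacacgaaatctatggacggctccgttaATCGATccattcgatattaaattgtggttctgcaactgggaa
snoRNA:CD-24: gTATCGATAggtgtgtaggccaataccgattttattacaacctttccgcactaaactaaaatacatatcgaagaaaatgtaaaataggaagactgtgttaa
mir-9385: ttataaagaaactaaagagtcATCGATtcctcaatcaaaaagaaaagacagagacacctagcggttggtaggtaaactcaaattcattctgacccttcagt

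Most chromosome 4 IDR peaks sat at promoters, and few sat in introns. Peaks with a summit no more than 500 bp from an annotated TSS were taken as promoter peaks, and 68 of the 85 chromosome 4 IDR peaks were of this kind, a share of 80.0% (interval 69.9 to 87.9). On the other arms together the share was 63.7% (62.7 to 64.7), and the single arms ranged from 59.6% on X to 68.6% on 2R. Intervals cover counting error only, and regions of 1 chromosome are neighbours and not replicates, so no p-value was computed over regions. The 17 remaining peaks comprised 12 between genes, 4 in introns and 1 in a 3' UTR, and none of the 85 summits lay in coding sequence (interval up to 4.25%). The intron share was 4.71% (1.30 to 11.6) on chromosome 4 and 25.7% (24.8 to 26.7) elsewhere, whereas the intergenic share was 14.1% (7.51 to 23.4) and 8.66% (8.08 to 9.27). Chromosome 4 had less promoter space than the other arms: 10.7% of its bases lay within 500 bp of a TSS, against 13.6%.

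The promoter share was read again in each replicate, among the 8952 regions of highest signal in its own list. Chromosome 4 held 82, 81 and 82 of these in replicates 1, 2 and 3. Promoters took 80.5%, 79.0% and 78.0% of them, against 65.7%, 63.0% and 60.3% on the other arms. The chromosome 4 value was above the other arms in every replicate, by 16.2 ± 1.52 percentage points (SD, n = 3; exact two-sided sign-flip permutation p = 0.25). With 3 replicates 0.25 is the smallest p this test can give, so no such comparison can pass the usual threshold. It was the p of 13 of the 16 comparisons made this way, 0.308 after Benjamini-Hochberg adjustment over the 16. Introns held 4.88%, 3.70% and 3.66% of the highest chromosome 4 regions, against 26.1% ± 1.70 elsewhere, a difference of −22.0 ± 2.36 points (exact permutation p = 0.25, n = 3). Among the peaks above the median signal the promoter shares lay closer, with chromosome 4 at 79.5% and a difference of 7.73 points, and over the whole replicate lists the difference was 3.19 points.

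**Figure D1:**
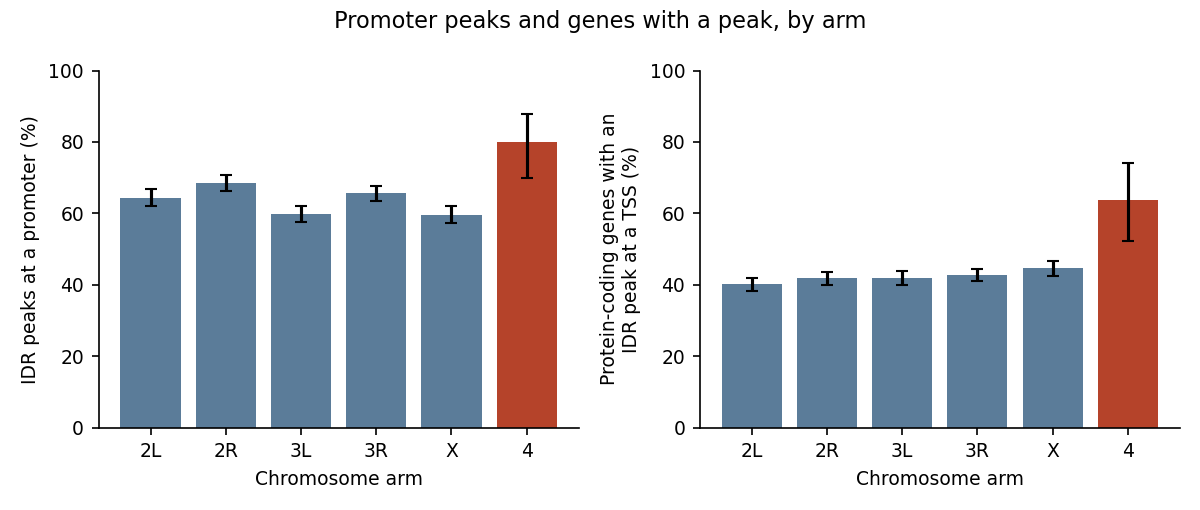
Share of IDR peaks at a promoter (left, %) and share of protein-coding genes with an IDR peak at a TSS (right, %), for each chromosome arm; bars start at 0 and error bars are 95% exact intervals. Chromosome 4 stands at 80.0% and 63.8%, and its lower bounds of 69.9% and 52.2% lie above the values of the other 5 arms.

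Chromosome 4 carries few genes for its length, and many of them had a peak. It has 80 protein-coding genes, or 59.3 per Mb against 105 per Mb elsewhere, and 51 of them had an IDR peak within 500 bp of a TSS. This was 63.8% (52.2 to 74.2), beside 42.3% of protein-coding genes on all arms and 42.2% (41.4 to 43.0) on the other arms. A gene was counted at any of its annotated TSSs, here and for the gene pairs below. Chromosome 4 genes had more of these each, with 142 protein-coding TSS positions for 80 genes, against 19110 for 13865 genes elsewhere. Whether this contributed to the difference was not tested. A further 17 genes had a pooled region below the IDR set at a TSS, and 12 had no region there. Read in single replicates, 48, 51 and 51 of the 80 genes had one of the highest regions at a TSS, a mean of 62.5% ± 2.17 against 41.5% ± 1.33 (difference 21.0 ± 3.48 points, SD, n = 3, exact permutation p = 0.25). Of the 51 genes, 32 had 1 IDR peak at a TSS, 15 had 2 and 4 had 3. With all IDR peaks counted, also those away from a TSS, the chromosome held 1.06 for each protein-coding gene against 0.640 elsewhere. That goes with its fewer genes per Mb, as IDR peaks per Mb were similar (63.1 against 66.9). Among its non-coding RNA genes, asRNA:CR44030 and lncRNA:CR43958 had an IDR peak at a TSS.

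Head-to-head gene pairs took a similar share of genes on chromosome 4 and elsewhere. A partner on the opposite strand with its TSS within 1000 bp was present for 32 of the 80 genes (40.0%), against 39.6% of genes on the other arms. Of these paired genes 68.8% had an IDR peak on chromosome 4 and 68.7% elsewhere. Among genes with no such partner the shares stood apart, with 29 of 48 on chromosome 4 (60.4%, 45.3 to 74.2) and 24.8% (23.9 to 25.7) on the other arms. Most promoter peaks served 1 gene: 61 of 68 had a single gene start within 500 bp, 6 had 2 and 1 had 3. The peak with 3 had its summit 11 bp into Pur-alpha, which encodes a single-stranded nucleic acid binding protein, and within 500 bp of the starts of Tdg, a DNA glycosylase gene, and lncRNA:CR43958.

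Among developmental regulators, the strongest promoter peak on the chromosome was that of Sox102F, an HMG-box transcription factor of the SoxD type. Its pooled signal, a score of the authors' peak caller with no unit, was 872, and its values in replicates 1, 2 and 3 were 367, 298 and 200. The scale differs between lists, so each value is read only within its own list. The Sox102F summit lay inside the gene, at −254 bp from an internal TSS. A weaker peak of 420 lay at −591 bp from the outermost start of Sox102F and was not counted as a promoter peak. The gene ey, the fly Pax6 that directs eye development, had a promoter peak of 521 with replicate values of 263, 132 and 122, and pan, the TCF factor of Wnt signalling, had one of 440 with 209, 126 and 116. Mitf (324), pho (269), which encodes the DNA-binding Polycomb group protein Pleiohomeotic, and onecut (196) had weaker ones. These were 6 of the 14 transcription factor genes listed, or 42.9%, a share near the 42.3% of protein-coding genes on all arms and below the 63.8% on chromosome 4. The Hedgehog effector ci (138), the Pax6 paralogue toy (94.1), zfh2 (143) and dati (72.4) had pooled regions at a TSS below the IDR set, and sv, fd102C, NfI and fuss had none.

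Signalling genes had IDR peaks at 11 of 12 members listed (91.7%, beside 42.3% of protein-coding genes on all arms and 63.8% on chromosome 4), the exception being mav, a TGF-beta family ligand. PlexA, a semaphorin receptor, had a signal of 750, with values of 284, 184 and 265. Within the lists of replicates 1, 2 and 3 it ranked 1573, 2066 and 526, so its best rank was in replicate 3. Its paralogue PlexB stood at 428, with 172, 121 and 151. The intracellular members included lgs, the BCL9 homologue of the Wnt pathway, at 534, the adaptor gene Crk at 491, the calmodulin-dependent kinase gene CaMKI at 414 and the lipid kinase gene PIP4K at 408. The kinase gene Dyrk3 shared a peak of 416 with Cadps, which acts in dense-core vesicle release. The receptor Eph (362), its ligand Ephrin (383) and the TGF-beta family ligands Actbeta (321) and myo (273) were lower in the range.

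Housekeeping, RNA and chromatin genes had IDR peaks at 15 of 17 members (88.2%), again beside 42.3% of all protein-coding genes and 63.8% of those on chromosome 4. The ribosomal protein gene RpS3A reached 768, with 402, 232 and 142 in the 3 replicates. Next came gw, whose GW182 protein silences microRNA targets, at 688 with 282, 279 and 139, and MED26, a Mediator subunit gene, at 683 with 342, 207 and 140. The ATP synthase subunit gene ATPsynbeta shared a peak of 597 with its neighbour CG11076. The chromatin-associated factor gene Hcf stood at 558, the DNA repair gene Rad23 at 546, the zinc transporter gene Zip102B at 521 and the small GTPase gene Arl4 at 406. Taf3, a TFIID subunit gene, had a pooled region of 157 below the IDR set, and RhoGAP102A had none. A peak of 536 lay inside Zyx, a cytoskeletal adaptor gene, within 500 bp of a TSS of Zyx and of one of apolpp on the opposite strand. The apolipophorin gene apolpp was the single member of 4 with an IDR peak in the structural and secreted list, where bt (92.2) and yellow-h (89.8) were below the IDR set and sphinx had no region.

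Neuronal genes had IDR peaks at 5 of 11 members (45.5%), between the 42.3% over all arms and the 63.8% over chromosome 4. Besides Cadps these were Cals, encoding the synaptic membrane protein calsyntenin, at 335, Asator, a tau-tubulin kinase gene, at 307, the calcium pump gene PMCA at 304 and Ank at 209. The genes unc-13 (111), mGluR (117), Ekar (68.6), Gat (62.3) and Syt7 (58.4), which encode a vesicle priming factor, glutamate receptors, a GABA transporter and a synaptotagmin, had regions below the IDR set, and Kif3C had none. Outside the lists, the strongest promoter peaks were those of the translational regulator gene Gyf (690), anne (677), CG31998 (543), the neuronal kinase gene CaMKII (408) and 4E-T (390), whose protein binds the cap-binding factor. The genes on the lists were chosen with earlier results of these data known, and the lists are small, so the counts describe them and were not tested.

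**Figure D2:**
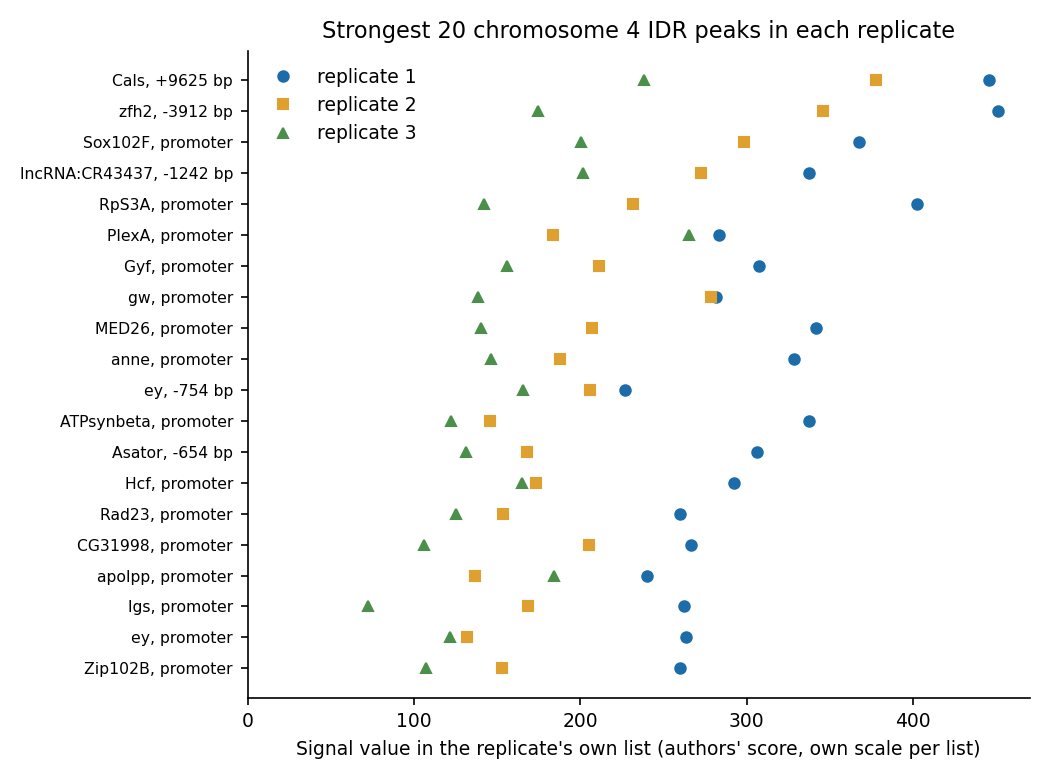
Signal value of the 20 strongest chromosome 4 IDR peaks in the 3 replicates (authors' score, whose scale differs between lists), ordered by pooled signal and named by the nearest TSS with its distance in bp where the peak is no promoter peak. As drawn, replicate 3 lies lowest for most peaks, and PlexA is one at which it lies above replicate 2. This order is not read as a difference between replicates.

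Promoter summits on chromosome 4 lay further into the gene than those elsewhere. The median position was 35.5 bp downstream of the nearest TSS on chromosome 4 (middle 50% of peaks from −68.2 to 106 bp, negative values being upstream), and −53 bp on the other arms (−142 to 13). Upstream summits were 28 of 68 on chromosome 4 (41.2%, 29.4 to 53.8) and 70.6% (69.4 to 71.8) elsewhere. The peaks of MED26 (92 bp downstream), Hcf (96), lgs (87), Crk (83) and Zip102B (109) were downstream, whereas those of anne (−69 bp), PlexA (−167) and Sox102F (−254) were upstream. In replicates 1, 2 and 3 the upstream share was 33.3%, 45.3% and 56.2% on chromosome 4, against 68.8%, 69.2% and 75.8%. It was lower on chromosome 4 in each replicate, with a mean difference of −26.3 ± 8.24 points (SD, n = 3; exact permutation p = 0.25). The lowest value on the other arms, 68.8%, was above the highest on chromosome 4, 56.2%. The share was 39.1% at divergent and 42.2% at other chromosome 4 promoters, against 70.6% for both kinds elsewhere. Within 200 bp of the TSS lay 80.9% (69.5 to 89.4) and 79.3% (78.2 to 80.3) of promoter summits, respectively.

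**Figure D3:**
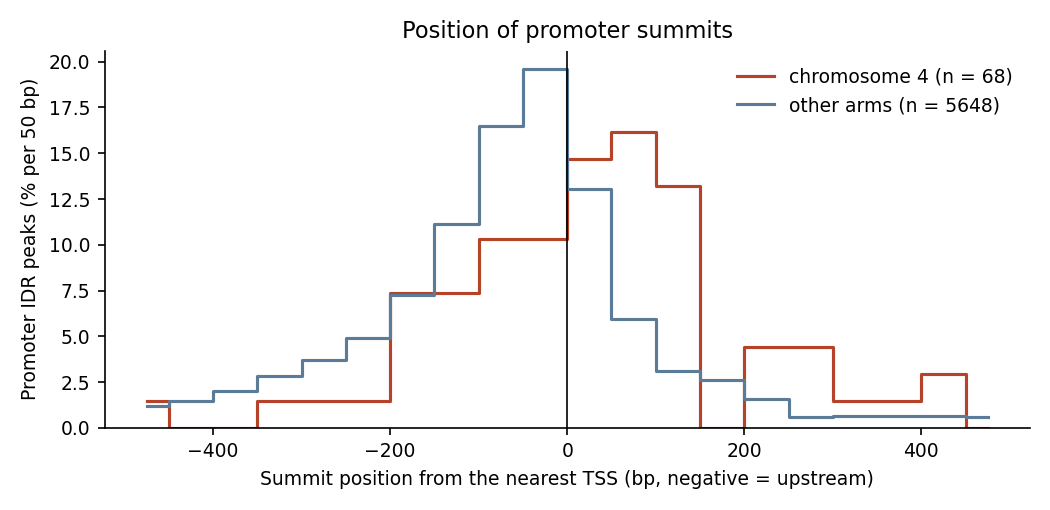
Position of promoter IDR summits relative to the nearest TSS in bp (negative is upstream), as % of promoter peaks per 50 bp, for chromosome 4 (n = 68) and the other arms (n = 5648). The chromosome 4 line is highest between 0 and 150 bp downstream, whereas the other arms peak in the 50 bp upstream of the TSS.

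Away from promoters, a handful of strong peaks made up the top of the chromosome. The strongest IDR peak on chromosome 4 lay where the convergent genes sv and Cals end, in the 3' UTR of Cals (chr4:1112925-1113508), with a pooled signal of 1055 and replicate values of 446, 378 and 238. The next, upstream of zfh2 (chr4:497765-498062), had 973 with 451, 346 and 174. A peak upstream of lncRNA:CR43437 reached 811 with 337, 273 and 202, so these 3 peaks ranked among the top 4 of the chromosome together with Sox102F, although they were not at a TSS. An upstream peak of ey (602, with 227, 206 and 166) exceeded the one at its promoter in pooled signal. Peaks in an Asator intron (581), at −569 bp from a TSS of pan (434, with 247, 152 and 47.1), at −591 bp from Sox102F (420) and at −4432 bp from fuss (375) followed. The fuss gene, a Ski/Sno family regulator, had no region at its TSS but had 3 IDR peaks upstream.

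Of the motifs searched on both strands within 50 bp of the summit, the DRE was more frequent at off-promoter peaks of chromosome 4 than at those of the other arms. The DRE core ATCGAT, which also lies inside the full DRE TATCGATA, was present in 4 of the 17 off-promoter peaks (23.5%, 6.81 to 49.9), against 2.45% (1.95 to 3.05) of such peaks on the other arms. The full DRE was in 2 of them, the ey and snoRNA:CD-24 windows shown above, against 0.342% elsewhere. Of the 4 peaks with the core, those at ey (−754 bp) and Asator (−654 bp) lay within 1000 bp of a TSS. They are off-promoter peaks only at the 500 bp distance. Those nearest to snoRNA:CD-24 (2128 bp) and mir-9385 (−3764 bp) lay farther away. At promoter peaks the DRE core was in 6 of 68 (8.82%, 3.31 to 18.2) against 13.7% elsewhere, beside 14.1% and 11.1% of all protein-coding TSS windows on chromosome 4 and on the other arms. Those 6 were at ey, PIP4K, eIF4G1, Actbeta, CG32017 and CG11360. The full DRE was in 2 promoter peaks (2.94% against 5.42%, with 6.34% and 4.46% of TSS windows).

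Away from promoters GAGAG, the GAGA motif, was in 0 of 17 peaks (interval up to 19.5%) against 9.60% elsewhere, and in regions clear of every IDR peak it was in 5.31% (2.68 to 9.31) against 12.1%. In the latter GCCAT, the core of the motif bound by Pleiohomeotic, was in 11.6% (7.57 to 16.8) against 17.5%. At promoter peaks GAGAG was in 8 of 68 (11.8% against 9.51%, with 11.3% and 12.7% of TSS windows). GCCAT was in 11 of 68 (16.2% against 15.7%, with 11.3% and 16.9% of TSS windows). GTCACACT, the motif 1 core, was in 2 of 68 (2.94% against 4.14%, with 2.11% and 3.93%). The E-box CAGCTG was in 1 of 68, a weaker peak at ND-49 (1.47% against 6.50%, with 3.52% and 8.81%). A match describes the letters of the window only. The median GC content within 50 bp of IDR summits was 34.7% on chromosome 4 and on the other arms, while the chromosome as a whole had 35.3% GC against 42.2%. In regions clear of every IDR peak the median was 35.6% on chromosome 4 against 39.6%. Whether base content contributed to the motif differences there was not tested.

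Below the IDR set, chromosome 4 regions had a different makeup. The 207 pooled regions clear of every IDR peak (34 others overlapped one) were at promoters in 21.7% of cases (16.3 to 28.0), against 22.8% elsewhere. Their summits lay in coding sequence in 27 cases, or 13.04% (8.77 to 18.4) against 3.19% (2.94 to 3.46), and in introns in 35.3% (28.8 to 42.2) against 47.8%. Coding sequence made up 19.7% of chromosome 4 and 17.0% of the other arms. The coding summits were spread over 22 genes, with 3 in pan and 2 each in CG32017, mav and myo. In single replicates, lower regions that overlapped none of the highest were in coding sequence in 12.7%, 13.3% and 16.9% of cases, above the other arms each time, by 9.62 ± 2.06 points (SD, n = 3; exact permutation p = 0.25).

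Many of these weaker regions lay in transposable elements. Annotated elements covered 25.1% of chromosome 4 and 5.75% of the other arms. The summit lay in one for 43 of the 207 lower chromosome 4 regions (20.8%), against 0.646% elsewhere, and for 1 of the 85 IDR peaks, an INE-1 copy at −1820 bp from fuss. In replicates 1, 2 and 3 the share of lower regions was 18.6%, 17.5% and 18.6%, against 0.600%, 0.561% and 0.730%, a difference of 17.6 ± 0.601 points (SD, n = 3; exact permutation p = 0.25). INE-1, a short non-autonomous element of which 344 copies are annotated on the chromosome, held 26 of the summits, and the DNA transposon 1360, with 60 copies, held 13. The 2 strongest chromosome 4 regions outside the IDR set had their summits in 1360 copies. They lay at the start of lncRNA:CR46488 (chr4:181617-182106, signal 180, with 94.4, 50.6 and 53.9 in the replicates) and in the 3' UTR of Hcf (chr4:374237-374726, signal 172, with 73.9, 56.8 and 22.8). The next were at pan (164 and 162) and CaMKII (163), all overlapping an IDR peak. Whether reads from other copies of an element contributed was not tested, since the lists carry no read mapping information. Of the 43 element regions, 14 were in all 3 replicate lists (32.6%, 19.1 to 48.5), against 23.2% (16.9 to 30.4) of the other lower chromosome 4 regions. These intervals overlap, and on the other arms the order was the opposite, 22.9% of element regions against 32.7% of the others.

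**Figure D4:**
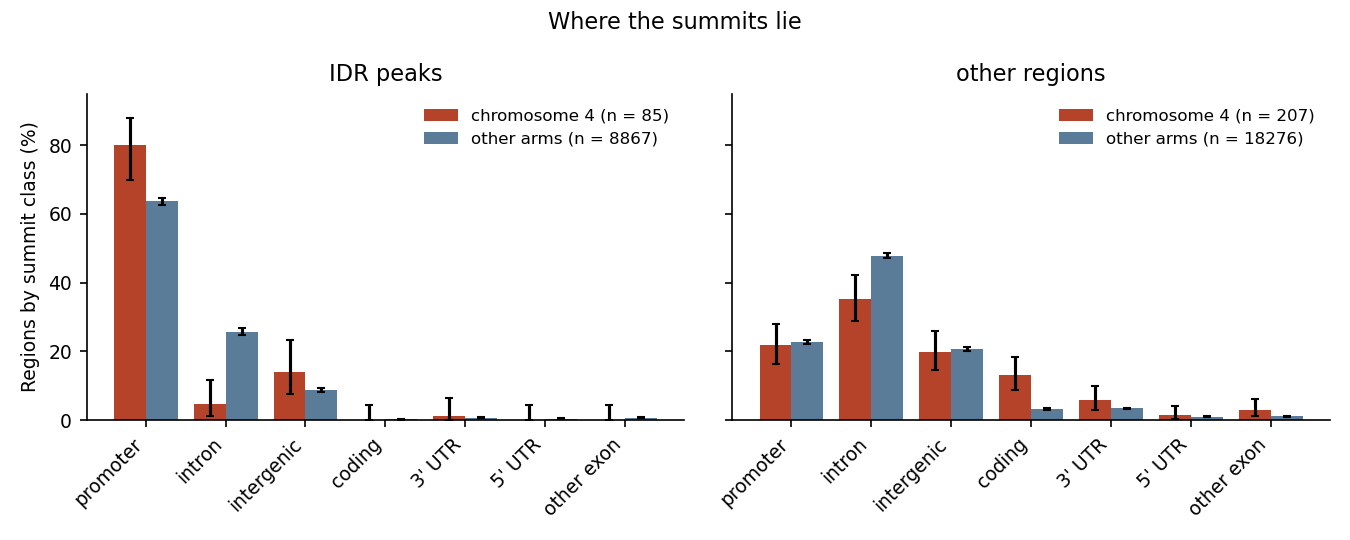
Share of summits in each feature class (%) for IDR peaks (left) and for pooled regions that overlap no IDR peak (right), on chromosome 4 and on the other arms; error bars are 95% exact intervals. Among IDR peaks the chromosome 4 bars are higher at promoters (80.0% against 63.7%) and lower in introns (4.71% against 25.7%), and among other regions they are higher in coding sequence (13.04% against 3.19%).

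Signals on chromosome 4 were moderate, with no peak at the very top of the genome. None of the 500 highest pooled regions lay on chromosome 4, with an exact interval of the share reaching 0.735%, and the best, at Cals, ranked 526. Of the highest 1000, 2000 and 4000 regions, 4, 13 and 33 lay there, a share of 0.400%, 0.650% and 0.825%, against 1.09% of all 30000. The median pooled signal of IDR peaks was 335 on chromosome 4 and 355 elsewhere. At promoters it was 337 (middle 50% from 277 to 453) against 388 (269 to 587), and away from them 301 on both. In the whole replicate lists, the chromosome 4 median was 0.880, 0.893 and 0.911 of that on the other arms (mean 0.895 ± 0.0153, SD, n = 3, exact permutation p = 0.25). Among the highest regions of each replicate the ratio was 0.978 ± 0.0318 (n = 3, exact permutation p = 0.5), which differed from 1 by less than the spread between replicates.

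The strong chromosome 4 regions overlapped between replicates at a share close to that of the other arms, and the whole lists at a lower one. A counterpart in all 3 replicate lists was found for 84 of the 85 IDR peaks (98.8%), against 96.9% on the other arms. The exception was a peak at the mitochondrial complex I gene ND-49 (chr4:570422-570911) that had no counterpart in replicate 3. Counterparts among the highest regions of all 3 replicates were found for 67 of the 85 (78.8%, 68.6 to 86.9), against 78.6% on the other arms. The IDR peaks had been kept as reproducible between these replicates, so high shares follow in part from that choice. Neighbouring peaks can share a counterpart, as the 2 gw summits with the same coordinates did. Taking each replicate in turn, 83.7% ± 4.28 of its highest chromosome 4 regions overlapped those of another replicate, against 84.7% ± 1.32 (difference −1.03 ± 3.25 points, SD, n = 3, exact permutation p = 0.75). Over the whole lists the shares were 55.4% ± 4.14 and 65.5% ± 2.44, lower on chromosome 4 in each replicate, with a mean difference of −10.1 ± 2.21 points (SD, n = 3, exact permutation p = 0.25). In both comparisons every pair of replicates entered 2 of the 3 values. The values are therefore not independent, and their SD and p are descriptions only. Across the IDR peaks, Spearman's rho of the signal was 0.806 between replicates 1 and 2, 0.683 between 1 and 3 and 0.668 between 2 and 3, as a description over 85, 84 and 84 neighbouring regions, and 0.850, 0.821 and 0.833 on the other arms.

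**Figure D5:**
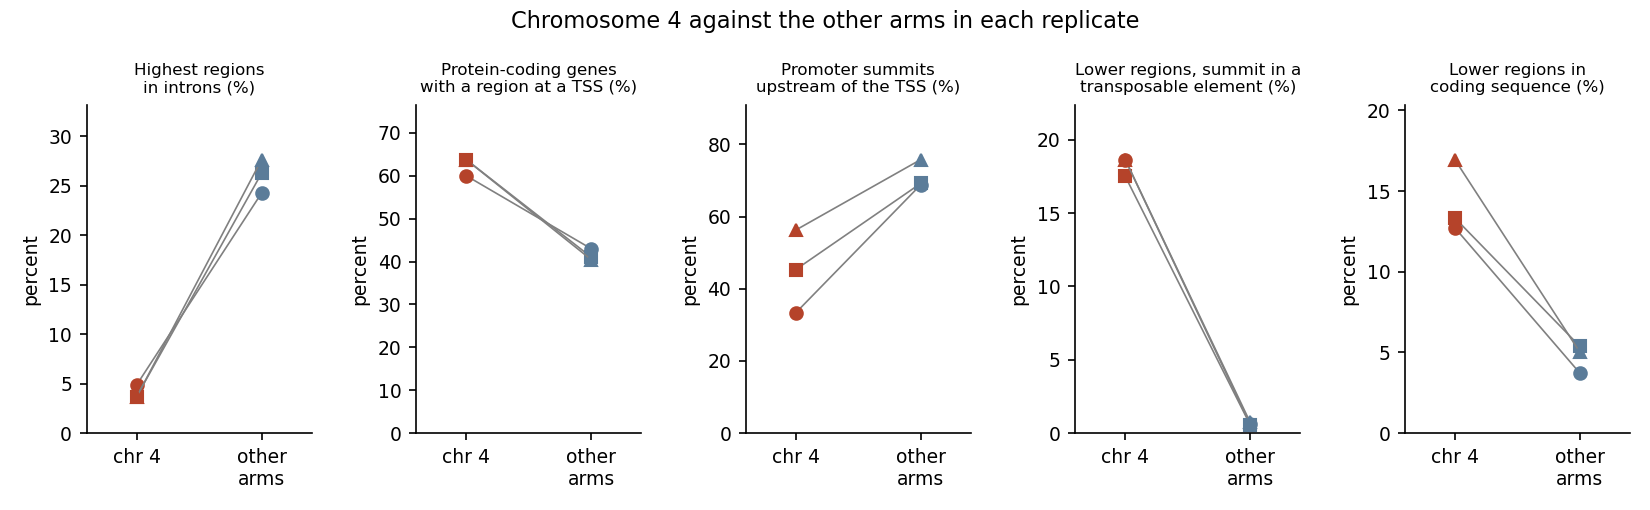
Chromosome 4 (left of each panel) and the other arms (right) in each replicate, joined by a line, for 5 shares in %: highest regions in introns, protein-coding genes with a highest region at a TSS, promoter summits upstream of the TSS, and lower regions with the summit in a transposable element or in coding sequence. Circles, squares and triangles are replicates 1, 2 and 3, and all 3 lines slope the same way in every panel.

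Density along the chromosome was close to that of the other arms, and the direction of the spacing difference changed with the regions counted. Chromosome 4 is 1.35 Mb long in the build and had 242 pooled regions per Mb against 224, and 63.1 IDR peaks per Mb against 66.9. The IDR peaks had a median width of 490 bp, as elsewhere, and covered 2.30% of the chromosome in 70 separate stretches, against 2.53% of the other arms. The median distance between neighbouring IDR summits was 3768 bp (order-statistic interval 2145 to 9907) against 4494.5 bp, a ratio of 0.838. Summits within 300 bp of the next, such as those at Hcf, Rad23 and pho, were 19.0% of gaps (11.3 to 29.1) against 12.9%. Counted between the middles of separate stretches, a choice made after seeing the data, the median was 9462 bp against 5737 bp, a ratio of 1.65. Between the highest regions of each replicate it was 5459, 6097.5 and 7792 bp, above the other arms each time, with a ratio of 1.43 ± 0.208 (SD, n = 3, exact permutation p = 0.25). The direction thus changed with what was counted, and the cause was not tested.

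Long stretches without an IDR peak were also seen. The largest, of 89843 bp, ran between the ey and MED26 peaks and held bt, which encodes a giant muscle protein of the titin type and spans much of it, with 13 weaker regions. The second, of 82119 bp, ran from the CG31999 peak to that of Rad23. It held the starts of NfI, Syt7, dpr7, RhoGAP102A, yellow-h and CG1674, none with an IDR peak at its TSS. Others of 63523, 60395 and 60129 bp ended at the peaks of eIF4G1, Ank and Pur-alpha.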

How the data were processed

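Region lists were deposited by the authors for 3 ChIP-seq replicates, for the 3 replicates pooled, and for an IDR set, per the file notes. Calling used 1 control alignment, which was not analysed here. No source used here names the aligner, the caller or the threshold of the IDR step. The deposited score per region (signal value) came from the authors' caller and was used within a list only. The deposited −log10 q-value was not tested. The deposited summit offset, another field of the authors' lists, placed each summit. Read counts were not part of the lists, so depth per sample is unknown. The IDR set was exactly the 8952 pooled regions of highest signal. Lists on dm3 were counted only.

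Genes and transposable elements came from Ensembl release 115 (BDGP 6.54), and summits were classed in the order promoter (500 bp of any TSS), 5' UTR, coding, 3' UTR, other exon, intron, intergenic. Sequences came from RefSeq's genome release 6, with no conversion between builds. Replicate regions matched when they shared 50% of the shorter. Lower regions of a replicate overlapped none of its 8952 highest. Shares have exact Clopper-Pearson 95% intervals, and replicate comparisons an exact sign-flip permutation test. The promoter share difference, the overlap, the spacing and the sign-flip p were checked on simulated or constructed data with known answers. The other measures were not.

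Named were the genes at the 25 strongest promoter peaks with divergent partners, the 8 strongest peaks elsewhere, members of the 5 lists and the 5 strongest regions outside the IDR set. Of 59 listed symbols 58 matched, 5 of them through RefSeq synonyms; Galphaf did not. Genes at gaps, coding summits, shared starts and DRE cores, and the measures of summit position, transposable elements, coding sequence and unpaired genes, were chosen after the values were seen. Members, lists and tests were chosen with earlier results of these data known. Alternatives were other TSS distances and TSS sets, autosomal arms, collapsed coordinates, other numbers of regions, other overlap rules and each replicate left out. The work used pandas 2.3.3 and numpy 2.4.6 on Python 3.11.15, with scipy 1.17.1 for intervals and matplotlib 3.10.9 for figures.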

Additional observations from a re-analysis of the deposited data

How the results depend on the processing

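Of 13 results, 11 kept their direction under every alternative run. Among these 11, the chromosome 4 share of the highest regions could not reverse, since it is a share and not a difference. Of 81 alternatives in all, 66 were counted as unchanged. Where there was no test, the direction had to hold and the chromosome 4 value alone to stay within its replicate spread or counting interval. The size of a difference or ratio was not judged. The promoter difference of 7.73 points thus counted as unchanged, with a chromosome 4 share of 79.5%. For results with a sign-flip test only the direction was judged, since no p could pass the threshold. A change in size was not counted there either, as for the promoter difference in single replicates, 16.2 points among the highest regions and 3.19 over whole lists. The promoter difference of the IDR peaks was 14.2 points with a TSS distance of 200 bp, 7.73 among the peaks above the median signal (16.3 with all), and 16.2 to 18.7 with a replicate left out. That of the pooled regions (4.86 points) was 0.509 at 200 bp and 7.83 at 1000 bp. Among the IDR peaks above the median signal, the difference in genes with a peak was 15.0 points (21.5 with all), and it was 17.3 to 20.5 with a replicate left out. The chromosome 4 share of the highest regions (0.912%) was 1.12% of the autosomal arms, 0.886% for fewer regions and 1.15% of whole lists. The spacing ratio of 0.838 reversed to 3.08 for the higher-signal peaks, 1.43 in the replicates, 1.65 between stretches and 1.70 to 1.82 with a replicate left out; in the last the IDR step was replaced by overlap of the remaining replicates, which kept 66 to 73 chromosome 4 regions. The overlap difference between replicates of −1.03 points was −10.1 over whole lists and −4.59 with fewer regions, reversed to 1.47 with any overlap, and ranged from −4.49 to 1.84 with a replicate left out, reversing without replicate 2. The causes were not tested. The TSS sets and replicate values for summit position, transposable elements and coding sequence, the spacing of stretches and the unpaired genes were chosen after seeing the data. Depth is unknown, and 85 peaks limit the precision of shares.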

Other observations

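Cut into 5 equal lengths from the first base to the last, chromosome 4 held 14, 21, 19, 18 and 13 IDR peaks and 83, 71, 66, 67 and 39 pooled regions. The first length thus had the most pooled regions and the lowest share of them kept as IDR peaks, 16.9%, whereas the last had the fewest regions and the highest share, 33.3%. The highest regions of the 3 replicates numbered 16, 15 and 17 in the first length and 13, 13 and 12 in the last. The lists on the older dm3 build, which were not compared by position, held 289 pooled regions and 83 of 8848 IDR peaks on chromosome 4.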
